A study of Caenorhabditis elegans with 12 samples.

Results

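The basic helix-loop-helix (bHLH) transcription factors of *Caenorhabditis elegans* that carry an *hlh* number, except *hlh-1*, were examined together with *cnd-1*, *ngn-1*, *lin-32* and *lin-22*. They were chosen by a rule on names, which was set with earlier results of these data known. Of the 45410 rows counted in each library, 28 met this rule. RNA-sequencing was performed on whole mid-stage embryos of *set-2* mutants and of the wild-type strain N2 in 2 experiments, with 3 libraries per group and 12 libraries in all. The question was which genes depend on SET-2, a methyltransferase of histone H3 lysine 4, at the stage in which axons of the ventral nerve cord grow out. The first experiment compared *set-2(tm1630)* embryos with N2 embryos (N2 experiment 1), and the second compared *set-2(zr2012)* embryos with other N2 embryos (N2 experiment 2). In tm1630 the start codon of *set-2* is deleted together with neighbouring sequence, and the zr2012 allele is a single amino acid substitution in the catalytic SET domain, made by genome editing in *pha-1(e2123)* animals and selected by restoring *pha-1*. Each allele is a single line that was backcrossed before use, *set-2(tm1630)* more times than *set-2(zr2012)*. In all 4 groups young adults were bleached and their eggs were kept for 4 h at 20 °C in M9 buffer, which left most embryos at the comma stage. The study's methods describe the preparations of each genotype as independent experiments, with mutant and wild type processed in parallel.

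Proteins of the bHLH class bind E-box DNA as dimers through a helix-loop-helix domain. Tissue-specific members mostly pair with a broadly expressed E protein, which in *C. elegans* is HLH-2. Proneural members of the Achaete-Scute, Atonal, Neurogenin and NeuroD families commit cells to neural lineages, Hairy-related members are repressors, and other members act in glia, mesoderm, glands or single neuron classes.

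Libraries held between 14651380 and 53080992 counts, so that 3 counts corresponded to between 0.0555 and 0.202 CPM, the read count scaled to the normalized size of the library. The *set-2* row held 116, 12 and 97 reads in the libraries labelled *set-2(tm1630)* and 1, 11 and 44 reads in N2 experiment 1, so that this count does not check the labels. It held 12, 13 and 10 reads in *set-2(zr2012)* and 9, 13 and 17 reads in N2 experiment 2, where a substitution would not be visible in a count. The 3 N2 libraries of experiment 1 correlated with each other at 0.896 to 0.937 (Pearson, log2 CPM over genes), whereas the 3 *set-2(tm1630)* libraries correlated at 0.985 to 0.995. In experiment 2 the *set-2(zr2012)* libraries correlated at 0.996 to 0.998, and N2 replicate 3 stood apart from N2 replicates 1 and 2 (0.953 and 0.955, against 0.998 between these). Genes of early embryos and of the maternal load (15 genes, of which *pie-1* and *mex-3* were listed at 0 in every library) summed to 694.1 to 878.1 CPM in *set-2(tm1630)* and 14.28 to 92.16 CPM in N2 experiment 1. Their sum was 88.94 to 112.3 CPM in *set-2(zr2012)* and 67.86, 76.8 and 470.4 CPM in N2 experiment 2, with the highest value in replicate 3. Of 11 such genes tested in *set-2(tm1630)* 9 were higher, *nos-2* (log2 fold change 5.26, adjusted p = 0.00576) and *end-1* (5.08, adjusted p = 0.0032) the most. Of 12 tested in *set-2(zr2012)* none passed with edgeR or with DESeq2, and none was past an unadjusted p under 0.05 (0 of 12). Without N2 replicate 3 of experiment 2, 6 were higher and 1 was lower in *set-2(zr2012)*. Of all 16555 genes tested without that library, 5082 were higher and 5386 lower. The part of the early embryo and maternal genes in the levels of the bHLH genes was not tested. In whole embryos fewer cells of a type and less RNA per cell cannot be told apart.

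Counts were compared within each experiment with edgeR's quasi-likelihood test, a two-sided test with Benjamini-Hochberg adjustment over all genes, and an adjusted p under 0.05 was taken as a change. Of the 28 genes, 20 reached 10 counts in at least 3 libraries of experiment 1 and were tested. In *set-2(tm1630)* 7 of these fell, which is 35% of them, where 16.0% of all genes tested fell. The 7 genes are *hlh-32*, *hlh-15*, *hlh-17*, *cnd-1*, *hlh-34*, *hlh-8* and *hlh-6*. None rose in *set-2(tm1630)*, where 14.4% of all genes tested did. The count of rises was also 0 at an unadjusted p under 0.05 and 0 with the Wald test of DESeq2. The median log2 fold change was −0.98 over the 20 genes and −0.21 over all genes tested. These counts depended on the mutant libraries kept: no gene passed without *set-2(tm1630)* replicate 1 or without replicate 2, and only *hlh-15* passed without replicate 3. Without N2 replicate 1 of this experiment 6 passed, with *hlh-3* and *ngn-1* in place of *hlh-6*, *hlh-17* and *hlh-32*. Without N2 replicate 2, 4 passed (*cnd-1*, *hlh-15*, *hlh-34* and *hlh-8*), whereas without N2 replicate 3, 10 fell and *hlh-2* rose. Over all genes, 140 fell without mutant replicate 1, 225 without replicate 2 and 214 without replicate 3, against 2609 with all 6 libraries. The count over all genes was 2522 without N2 replicate 1, 1409 without N2 replicate 2 and 4154 without N2 replicate 3. In the last of these fits 3703 of the 15776 genes tested rose.

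In *set-2(zr2012)* 20 of the 28 genes were also tested, 19 of them in both experiments. *hlh-34* fell, and it was the single gene of the 20 to pass (5% of them, where 4.74% of all genes tested fell). None rose (5.71% of all genes tested), and none did so at an unadjusted p under 0.05 or with the Wald test of DESeq2, which called 5 genes lower. That test called 1625 of all 16892 genes lower. The median log2 fold change was −0.19 over the 20 genes and −0.08 over all genes tested. No gene passed without any 1 of the 3 *set-2(zr2012)* libraries, nor without N2 replicate 1 or N2 replicate 2. Over all genes, 5, 6 and 0 fell without *set-2(zr2012)* replicates 1, 2 and 3, and 69, 71 and 29 rose. Without N2 replicate 1, 29 fell and 125 rose, and without N2 replicate 2, 26 fell and 113 rose. With all 6 libraries 800 fell and 965 rose. Without N2 replicate 3, the library that stood apart, 6 fell (*hlh-6*, *hlh-13*, *hlh-14*, *hlh-16*, *hlh-34* and *ngn-1*) and 2 rose (*hlh-2* and *hlh-4*), among 5386 lower and 5082 higher genes in all.

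**Figure D1:**
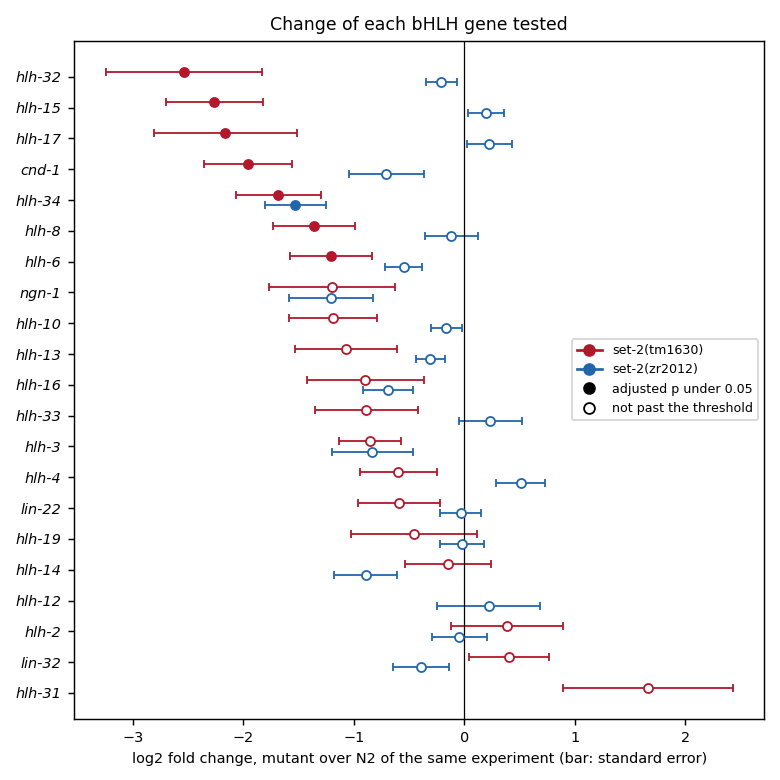
Log2 fold change (mutant over the N2 libraries of the same experiment) of the 21 bHLH genes tested in at least 1 experiment, with its standard error as a bar, for *set-2(tm1630)* in red and *set-2(zr2012)* in blue. Filled points passed an adjusted p of 0.05: 7 red points and 1 blue point, all to the left of 0, with *hlh-34* filled in both colours.

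*hlh-2*, which encodes the E protein partner of most tissue-specific members, had 125, 77.0 and 117 CPM in *set-2(tm1630)*, against 35.8, 60.8 and 147 CPM in N2 experiment 1. The groups overlapped, and the N2 libraries alone spanned the values of the mutant (log2 fold change 0.39, SE 0.51, adjusted p = 0.573). The *set-2(zr2012)* libraries had 68.3, 74.7 and 64.5 CPM, against 55.3, 57.2 and 102 CPM in N2 experiment 2. The difference there was −0.05 (SE 0.25, adjusted p = 0.912). In both experiments the highest N2 value came from replicate 3, and without that library *hlh-2* rose in each mutant, by 1.13 in *set-2(tm1630)* and by 0.30 in *set-2(zr2012)* on the log2 scale.

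Of the 5 proneural genes, *cnd-1* fell in *set-2(tm1630)* and none passed in *set-2(zr2012)*. *cnd-1*, the NeuroD homologue that acts in embryonic motor neuron fate, had 4.77, 5.73 and 6.10 CPM in *set-2(tm1630)* (5.54 ± 0.688, SD, n = 3) and 12.9, 21.6 and 30.04 CPM in N2 experiment 1 (21.5 ± 8.56, SD, n = 3). All mutant libraries were below all N2 libraries, with a 3.89-fold lower level (log2 fold change −1.96, SE 0.40, adjusted p = 0.0125). In *set-2(zr2012)* the same gene had 10.05, 13.2 and 9.68 CPM, against 13.7, 12.3 and 27.5 CPM in N2 experiment 2. Here the groups overlapped and the difference of −0.71 (SE 0.34) did not pass (adjusted p = 0.211). The difference between the alleles, −1.25, did not pass either (adjusted p = 0.0952).

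*ngn-1*, the neurogenin homologue, had 5.28, 6.68 and 8.41 CPM in *set-2(tm1630)*, against 6.51, 10.5 and 29.7 CPM in N2 experiment 1. In *set-2(zr2012)* it had 2.92, 3.06 and 3.08 CPM, against 4.60, 4.87 and 11.4 CPM in N2 experiment 2. The log2 fold changes were of like size, −1.20 (SE 0.57, adjusted p = 0.138) in *set-2(tm1630)* and −1.21 (SE 0.38, adjusted p = 0.0926) in *set-2(zr2012)*. Neither passed. The groups overlapped in experiment 1 and were separate in experiment 2, and N2 replicate 3 had the highest level of its group in both. The N2 level of *ngn-1* varied 2.47-fold between libraries of experiment 2, the most of any of the 19 genes with at least 10 counts in each of those libraries.

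*hlh-3*, an Achaete-Scute family gene that acts in the differentiation of the HSN motor neurons, had 15.2, 15.9 and 17.9 CPM in *set-2(tm1630)*, against 25.3, 32.3 and 30.9 CPM in N2 experiment 1. The 2 groups did not overlap, and the log2 fold change of −0.85 (SE 0.28) was just short of the threshold (adjusted p = 0.0509). It had 11.4, 14.5 and 9.68 CPM in *set-2(zr2012)*, against 15.7, 14.1 and 33.5 CPM in N2 experiment 2. These groups overlapped, with a log2 fold change of −0.83 (SE 0.37, adjusted p = 0.181).

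*hlh-14* belongs to the same family and is needed in the lineage that gives rise to the PVQ, HSN and PHB neurons. It had 21.1, 17.7 and 22.9 CPM in *set-2(tm1630)*, against 14.9, 17.8 and 35.8 CPM in N2 experiment 1. All 3 mutant values lay within the N2 range (log2 fold change −0.15, SE 0.39, adjusted p = 0.785). The values were 9.79, 11.2 and 7.11 CPM in *set-2(zr2012)*, against 14.8, 13.4 and 24.0 CPM in N2 experiment 2. All 3 mutant libraries were below all N2 libraries there, and the difference of −0.89 (SE 0.29) did not pass (adjusted p = 0.0937).

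*lin-32*, the Atonal homologue required for touch receptor neurons and male rays, had 7.54, 5.26 and 6.51 CPM in *set-2(tm1630)*, against 5.04, 3.88 and 5.68 CPM in N2 experiment 1. The groups overlapped (log2 fold change 0.41, SE 0.36, adjusted p = 0.406). It had 3.86, 2.28 and 2.71 CPM in *set-2(zr2012)*, against 3.46, 3.87 and 4.27 CPM in N2 experiment 2, which also overlapped (−0.39, SE 0.25, adjusted p = 0.329). *lin-32* was the single proneural gene with a positive log2 fold change in *set-2(tm1630)*, whereas all 5 were negative in *set-2(zr2012)*.

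**Figure D2:**
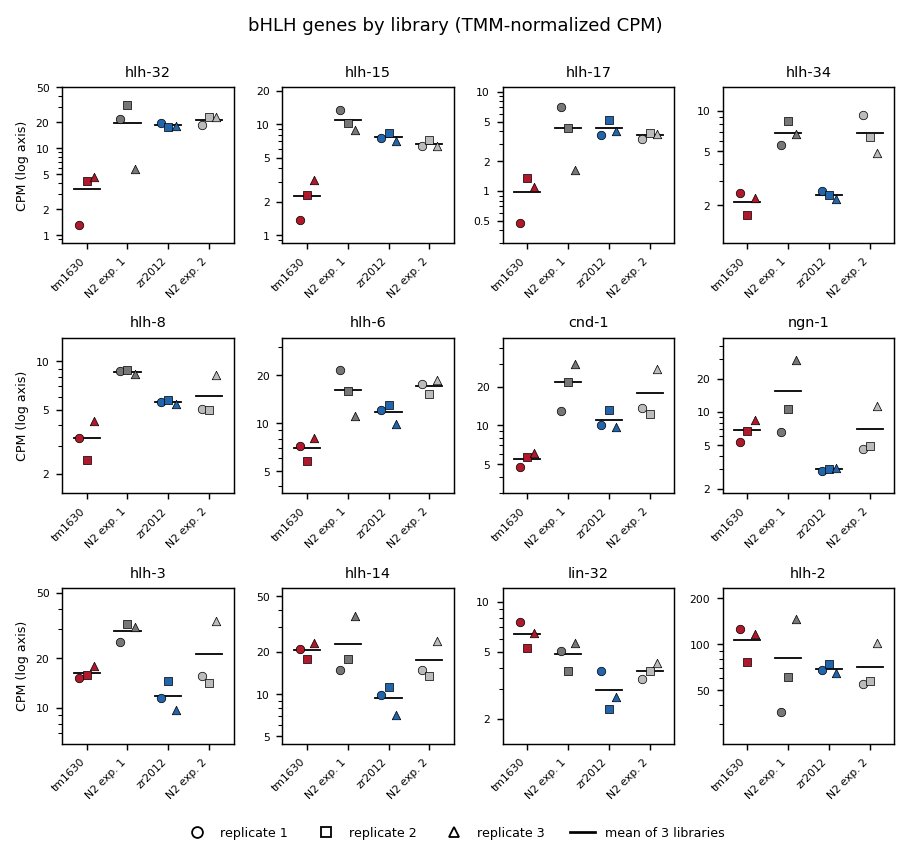
Level of 12 bHLH genes in each library, in TMM-normalized CPM on a log axis that differs between panels, with *set-2(tm1630)* in red left of N2 experiment 1 in dark grey, and *set-2(zr2012)* in blue left of N2 experiment 2 in light grey; symbols give the replicate number and lines the mean of 3 libraries. For *hlh-15* and *cnd-1* the red points lie below all dark grey points, *hlh-34* is low in both mutants, and N2 replicate 3 is the highest N2 library of *ngn-1*, *cnd-1*, *hlh-14*, *lin-32* and *hlh-2* in both experiments.

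The N2 libraries varied among themselves in these genes. In N2 experiment 1 the highest library was a median of 2.32 times the lowest over 19 genes with at least 10 counts in each library, and up to 5.39 times for *hlh-32*. The same ratio had a median of 1.59 in *set-2(tm1630)*, of 1.16 in *set-2(zr2012)* and of 1.52 in N2 experiment 2. Replicate 3 was the highest of the N2 libraries for 7 of 19 genes in experiment 1 and for 12 of 19 in experiment 2. The 7 were also among the 12: *hlh-2*, *hlh-14*, *lin-32*, *ngn-1*, *cnd-1*, *lin-22* and *hlh-16*. *hlh-15* and *hlh-13* were lowest in replicate 3 in both N2 groups. Replicate 3 also had the highest sum of early embryo and maternal genes of each N2 group, and the part of this in the levels of the bHLH genes was not tested.

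Of the other Achaete-Scute related genes (*hlh-4*, *hlh-6*, *hlh-12* and *hlh-19*), *hlh-6* fell in *set-2(tm1630)*. *hlh-6*, which acts in the development of the pharyngeal glands, had 7.14, 5.80 and 8.03 CPM in *set-2(tm1630)*, against 21.6, 15.8 and 11.02 CPM in N2 experiment 1. The mutant libraries were below all N2 libraries, with a 2.30-fold lower level (log2 fold change −1.20, SE 0.37, adjusted p = 0.0417). It was not called with the size factors of DESeq2 in place of TMM. Its level was 12.1, 13.1 and 9.94 CPM in *set-2(zr2012)*, against 17.5, 15.2 and 18.6 CPM in N2 experiment 2. These groups did not overlap either, and the smaller difference of −0.55 (SE 0.17) did not pass (adjusted p = 0.0820). The change did not differ detectably between the alleles (difference −0.64, adjusted p = 0.250).

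Genes of the pharyngeal glands, where HLH-6 acts, were counted from a list of 8. In *set-2(tm1630)* 5 of the 8 fell and none rose (16.0% and 14.4% of all genes tested), with a median log2 fold change of −1.86. Of the 8, 1 (*phat-3*) was higher by DESeq2 and at an unadjusted p under 0.05. Lists of other tissues also held falls (below), and the part of *hlh-6* in the levels of the gland genes was not tested. *phat-1* had 4.34, 9.58 and 6.51 CPM in *set-2(tm1630)*, against 69.1, 32.5 and 12.96 CPM in N2 experiment 1 (log2 fold change −2.49, adjusted p = 0.0219). *phat-2* (−2.01, adjusted p = 0.0155), *nas-12* (−2.01, adjusted p = 0.029) and *phat-5* (−1.99, adjusted p = 0.0182) were the next in size among those that passed. *phat-3* had a positive value (2.12) that did not pass (adjusted p = 0.11). As for *hlh-6*, the N2 value of each of the 4 in experiment 1 was lowest in replicate 3. In *set-2(zr2012)* none of the 8 passed with edgeR, 3 were lower at an unadjusted p under 0.05, 2 were lower by DESeq2, and the median was −0.66. Summed over the list, the level was 599.0 to 824.8 CPM in *set-2(zr2012)*, against 498.5 to 1390 CPM in N2 experiment 2. No gland gene fell in *set-2(tm1630)* without any 1 of its 3 libraries, and 3 fell without N2 replicate 2. Without N2 replicate 3 of experiment 2, 6 of the 8 fell in *set-2(zr2012)*, where 5386 of all 16555 genes tested fell.

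**Figure D3:**
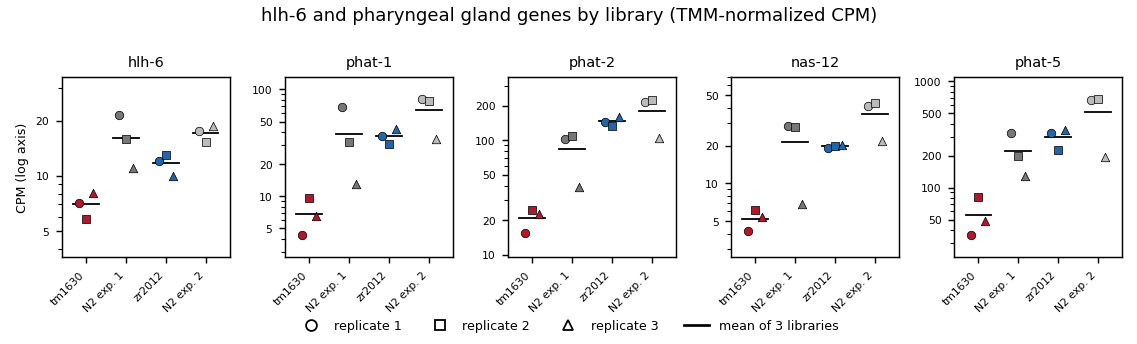
Level of *hlh-6* and of the 4 pharyngeal gland genes with the largest change among those past the threshold in *set-2(tm1630)*, in TMM-normalized CPM per library on a log axis that differs between panels; symbols give the replicate number and lines the mean of 3 libraries. In each panel the 3 red *set-2(tm1630)* points lie below the 3 dark grey N2 points, and replicate 3 is the lowest of the N2 experiment 1 points.

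*hlh-4*, a gene of the ADL chemosensory neurons, had values of opposite sign in the alleles. Its libraries were separate in both experiments, at a log2 fold change of −0.60 (SE 0.35, adjusted p = 0.212) in *set-2(tm1630)* and 0.51 (SE 0.22, adjusted p = 0.175) in *set-2(zr2012)*. Neither value passed, and nor did their difference of −1.09 (adjusted p = 0.0539). *hlh-19* differed from N2 by −0.46 in *set-2(tm1630)* and by −0.02 in *set-2(zr2012)*, with overlapping libraries. *hlh-12*, which acts in distal tip cell migration in the gonad, held 4 to 7 reads per *set-2(tm1630)* library and 3 to 17 reads per library of N2 experiment 1, and was tested only in experiment 2 (0.22, SE 0.47, adjusted p = 0.769).

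*lin-22*, a Hairy-related repressor of neuroblast fates in the lateral epidermis, had 3.73, 3.51 and 3.94 CPM in *set-2(tm1630)*, against 4.58, 4.89 and 7.34 CPM in N2 experiment 1. The mutant libraries were all below the N2 libraries, but the difference of −0.59 (SE 0.37) did not pass (adjusted p = 0.247). In *set-2(zr2012)* it had 5.11, 5.56 and 4.84 CPM, against 4.84, 4.78 and 6.21 CPM in N2 experiment 2, a difference of −0.03 (SE 0.19, adjusted p = 0.921).

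Of the 4 Olig-related genes 2 fell in *set-2(tm1630)*. *hlh-17* is expressed in the cephalic sheath glia, and *hlh-31* and *hlh-32* are close paralogues of it, so that reads may have been shared or lost between the 3 and their counts are uncertain. *hlh-32* had 1.31, 4.18 and 4.66 CPM in *set-2(tm1630)*, against 21.5, 31.5 and 5.84 CPM in N2 experiment 1. N2 replicate 3 was close to the mutant libraries, which lay below all 3 N2 libraries, and the level was 5.82-fold lower (log2 fold change −2.54, SE 0.71, adjusted p = 0.0308). *hlh-17* had 0.480, 1.35 and 1.09 CPM in *set-2(tm1630)*, against 6.96, 4.36 and 1.63 CPM in N2 experiment 1. Again the N2 replicate 3 was nearest to the mutant, with a 4.48-fold lower level in the mutant (log2 fold change −2.16, SE 0.65, adjusted p = 0.0387).

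Neither gene passed in *set-2(zr2012)*. *hlh-32* had 19.6, 17.8 and 17.96 CPM in *set-2(zr2012)*, against 18.3, 22.8 and 22.8 CPM in N2 experiment 2 (−0.21, SE 0.14, adjusted p = 0.352). *hlh-17* had 3.69, 5.20 and 4.00 CPM in *set-2(zr2012)*, against 3.36, 3.87 and 3.79 CPM in N2 experiment 2 (0.23, SE 0.21, adjusted p = 0.481). *hlh-31*, the neighbour of *hlh-17* in the genome, held few reads: 28, 6 and 17 in *set-2(tm1630)*, against 3, 1 and 18 in N2 experiment 1. In CPM its mutant libraries were above the N2 libraries, opposite in direction to *hlh-17* and *hlh-32*, without passing (1.66, SE 0.77, adjusted p = 0.131). It was not tested in experiment 2, with 2, 8 and 5 reads in *set-2(zr2012)* and 4, 3 and 5 reads in N2 experiment 2. The more distant *hlh-16*, which acts in the lineage of the AIY interneurons, had log2 fold changes of −0.90 (SE 0.53, adjusted p = 0.218) in *set-2(tm1630)* and −0.69 (SE 0.22, adjusted p = 0.0958) in *set-2(zr2012)*.

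*hlh-15*, the homologue of the vertebrate neuronal NHLH factors, fell in *set-2(tm1630)* and differed in its response between the alleles. It had 1.36, 2.29 and 3.14 CPM in *set-2(tm1630)*, against 13.5, 10.2 and 8.87 CPM in N2 experiment 1. The highest mutant library was well under the lowest N2 library, and the level was 4.80-fold lower (log2 fold change −2.26, SE 0.44, adjusted p = 0.0111). The *set-2(zr2012)* libraries had 7.47, 8.39 and 7.04 CPM, against 6.39, 7.21 and 6.38 CPM in N2 experiment 2. These groups overlapped (0.20, SE 0.16, adjusted p = 0.433).

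*hlh-8*, the Twist homologue of the mesodermal M lineage, had 3.36, 2.43 and 4.23 CPM in *set-2(tm1630)*, against 8.75, 8.77 and 8.36 CPM in N2 experiment 1. The N2 values were tight and all above the mutant, with a 2.57-fold lower level (log2 fold change −1.36, SE 0.37, adjusted p = 0.0282). In *set-2(zr2012)* it had 5.62, 5.72 and 5.46 CPM, against 5.04, 4.95 and 8.18 CPM in N2 experiment 2 (−0.12, SE 0.24, adjusted p = 0.764). Of 3 genes known as HLH-8 targets, *ceh-24*, an NK-2 class homeobox gene, fell in both mutants. It had 7.81, 7.08 and 8.98 CPM in *set-2(tm1630)*, against 32.2, 44.3 and 9.003 CPM in N2 experiment 1, where N2 replicate 3 was at the level of the mutant (log2 fold change −1.84, adjusted p = 0.0372). Its level was 17.3, 16.5 and 16.1 CPM in *set-2(zr2012)*, against 46.9, 45.8 and 32.3 CPM in N2 experiment 2 (−1.32, adjusted p = 0.0117). The other 2 targets changed in *set-2(tm1630)* in opposite directions: the FGF receptor gene *egl-15* fell (−2.17, adjusted p = 0.034) and the Notch ligand-like gene *arg-1* rose (2.94, adjusted p = 0.00961), both at under 2 CPM in every library. No target of HLH-8 fell in *set-2(tm1630)* without any 1 of the 3 mutant libraries or without N2 replicate 2, and *ceh-24* fell in *set-2(zr2012)* only with all 6 libraries or without N2 replicate 3.

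*hlh-34*, a bHLH-PAS gene of the AVJ interneurons, was the single one of the 28 genes to fall in both mutants. It had 2.45, 1.69 and 2.25 CPM in *set-2(tm1630)*, against 5.54, 8.34 and 6.73 CPM in N2 experiment 1, a 3.21-fold lower level (log2 fold change −1.68, SE 0.38, adjusted p = 0.0173). In *set-2(zr2012)* it had 2.53, 2.37 and 2.24 CPM, against 9.31, 6.43 and 4.90 CPM in N2 experiment 2, a 2.88-fold lower level (−1.53, SE 0.28, adjusted p = 0.0249). Every mutant library was below every N2 library in each experiment, and the 6 mutant values lay between 1.69 and 2.53 CPM. The 2 changes differed by −0.14 (SE 0.46, adjusted p = 0.853). The N2 value of *hlh-34* was not highest in replicate 3, unlike that of most proneural genes. The call was lost in *set-2(tm1630)* without any 1 of its 3 libraries, and in *set-2(zr2012)* without any 1 of its 3 libraries or without N2 replicate 1 or N2 replicate 2, where the log2 fold change lay between −1.74 and −1.25 with 1 library left out.

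The remaining genes tested did not pass in either mutant. *hlh-10*, *hlh-13* and *hlh-33* had log2 fold changes of −1.19, −1.07 and −0.89 in *set-2(tm1630)*, the first just short of the threshold (adjusted p = 0.0538), and of −0.16, −0.31 and 0.24 in *set-2(zr2012)*. Counted without regard to the threshold, 17 of 20 genes had a negative value in *set-2(tm1630)* and 15 of 20 in *set-2(zr2012)*. The median over all genes tested was also negative (−0.21 and −0.08), so that an even split of signs is not the reference for these counts. The mutant libraries were all below the N2 libraries for 11 of the 20 genes in *set-2(tm1630)*, where 24.6% of all genes tested were, and all above for 1, where 25.8% of all genes tested were. In *set-2(zr2012)* they were all below for 7 of the 20 (18.1% of all genes tested) and all above for 1 (18.9%).

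The change of each gene in *set-2(tm1630)* was set against its change in *set-2(zr2012)* in a fit of all 12 libraries, in which the allele and the experiment cannot be told apart. Of 21 genes tested, 3 differed, all more negative in *set-2(tm1630)*, which is 14.3% of them, where 11.7% of all genes tested did so. They are *hlh-15*, by −2.44 (SE 0.46, adjusted p = 0.0048), *hlh-17*, by −2.37 (SE 0.70, adjusted p = 0.0293), and *hlh-32*, by −2.32 (SE 0.75, adjusted p = 0.0428). The next by adjusted p was *hlh-8* (−1.23, adjusted p = 0.0502). Leaving out any 1 library left *hlh-15* past the threshold, whereas *hlh-32* passed only without N2 replicate 3 of experiment 1. *hlh-17* passed without N2 replicate 1, 2 or 3 of experiment 1, *set-2(tm1630)* replicate 2 or N2 replicate 3 of experiment 2, and not without any 1 of the other 7 libraries. The number of genes that differed was 1 without *set-2(tm1630)* replicate 1 or 3, without N2 replicate 1 or 2 of experiment 2, and without any 1 of the *set-2(zr2012)* libraries, 2 without *set-2(tm1630)* replicate 2 or N2 replicate 2 of experiment 1, 4 without N2 replicate 1 of experiment 1 and 5 without N2 replicate 3 of experiment 2. It was 9 without N2 replicate 3 of experiment 1, of which 7 were more negative and 2 more positive (*hlh-2* and *hlh-14*) in *set-2(tm1630)*. In the other fits with 1 library left out all were more negative. Over all 17765 genes tested without N2 replicate 3 of experiment 1, 3763 were more negative and 3530 more positive. Over all genes in the other fits with 1 library left out, 993 to 2618 were more negative and 1263 to 2444 more positive.

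Of the 28 genes, 7 were tested in neither experiment. *hlh-11*, which encodes the AP-4 homologue, and *hlh-30*, which encodes the TFEB homologue, were listed at 0 in all 12 libraries. So were *pha-4*, with 3 transcripts in RefSeq, and the actin gene *act-1*, with 1. A listing at 0 was more frequent with 2 or more RefSeq transcripts (31.9% of 4083 genes) than with 1 (3.15% of 12986). *hlh-11* has 3 RefSeq transcripts and *hlh-30* has 10, and a value of 0 for them is therefore not read as absence of RNA.

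The other 5 are *hlh-25* to *hlh-29*, members of the REF-1 family, whose proteins carry a pair of bHLH domains and which are targets of Notch signalling in early embryos. *hlh-25*, *hlh-26* and *hlh-27* neighbour each other in the genome, as do *hlh-28* and *hlh-29*, and reads may not be assigned uniquely among such close copies. The 5 genes together held 22, 15 and 19 reads in *set-2(tm1630)*, against 2, 0 and 3 reads in N2 experiment 1, and 4, 10 and 3 reads in *set-2(zr2012)*, against 2, 1 and 81 reads in N2 experiment 2. In CPM these sums were 0.586, 1.01 and 0.547 in *set-2(tm1630)*, against 0.0916, 0 and 0.0555 in N2 experiment 1. The sums were 0.172, 0.325 and 0.110 CPM in *set-2(zr2012)*, against 0.0672, 0.0435 and 1.94 CPM in N2 experiment 2. N2 replicate 3 of experiment 2 thus held the most reads of any library, between 4 for *hlh-28* and 27 for *hlh-27*. None of these 5 genes reached 10 counts in 3 libraries. Without the filter on low counts, *hlh-25* (adjusted p = 0.0373) and *hlh-27* (adjusted p = 0.0173) were called higher in *set-2(tm1630)* and none of the 5 was called in *set-2(zr2012)*. The founding gene of the family, *ref-1*, was tested in both experiments and did not pass, with log2 fold changes of 0.08 (adjusted p = 0.896) in *set-2(tm1630)* and −1.15 (adjusted p = 0.116) in *set-2(zr2012)*. *hlh-27* held 11, 4 and 7 reads in *set-2(tm1630)*, against 0, 0 and 1 in N2 experiment 1, and *hlh-25* held 3, 6 and 7 reads, against 0, 0 and 1. The libraries with the highest sums of *hlh-25* to *hlh-29* in CPM, the 3 of *set-2(tm1630)* and N2 replicate 3 of experiment 2, were also the 4 with the highest sums of early embryo and maternal genes, and the part of this in the values of the 5 genes was not tested.

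**Figure D4:**
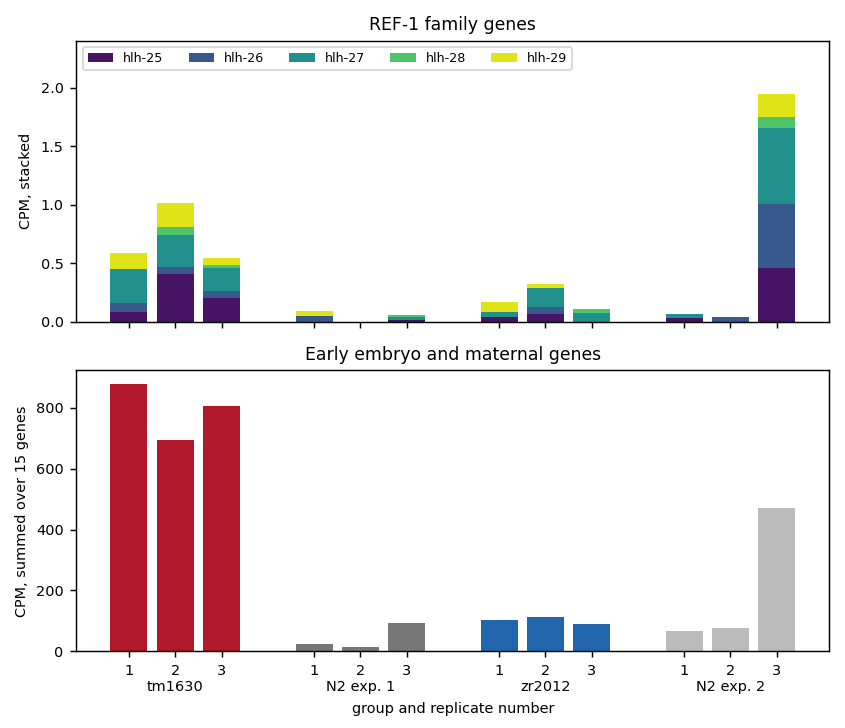
Level of *hlh-25* to *hlh-29* of the REF-1 family in each of the 12 libraries (upper panel, CPM, stacked by gene) and summed level of 15 early embryo and maternal genes in the same libraries (lower panel, CPM), by group and replicate number. The 3 *set-2(tm1630)* libraries and N2 replicate 3 of experiment 2 are the 4 highest in both panels.

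Genes of the Notch pathway, on which the REF-1 family depends, were counted from a list of 11, with *sel-8* listed at 0. In *set-2(tm1630)* 4 of 10 tested rose and none fell (14.4% and 16.0% of all genes tested): the receptor gene *glp-1* (log2 fold change 2.58, adjusted p = 0.0108), the presenilin gene *hop-1* (2.57, adjusted p = 0.00513), the ligand gene *apx-1* (1.53) and the γ-secretase subunit gene *pen-2* (0.91). In *set-2(zr2012)* 2 of 10 fell and none rose (4.74% and 5.71% of all genes tested), the ligand gene *lag-2* (−1.33) and the receptor gene *lin-12* (−0.65). *glp-1* and *apx-1* RNAs are supplied by the mother to the early embryo. The 4 rises were 2 without any 1 of the *set-2(tm1630)* libraries. The 2 falls were 0 without any 1 library of experiment 2 other than N2 replicate 3. Without that library, 3 fell and 2 rose, where 5386 and 5082 of all 16555 genes tested did.

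Other bHLH genes, which have no *hlh* number, were counted from a list of 11, all tested. In *set-2(tm1630)* 2 of 11 fell and none rose, a share of falls near the 16.0% of all genes tested (14.4% of which rose): *cky-1*, a bHLH-PAS gene (log2 fold change −2.93, adjusted p = 0.0224), and *ahr-1*, the aryl hydrocarbon receptor gene, which acts in neuronal fate in the worm (−2.14, adjusted p = 0.00642). *ahr-1* had 4.32, 5.46 and 5.87 CPM in *set-2(tm1630)*, against 19.2, 28.5 and 21.5 CPM in N2 experiment 1. It also fell in *set-2(zr2012)*, with 17.2, 15.1 and 14.7 CPM, against 27.8, 28.8 and 28.3 CPM in N2 experiment 2 (−0.86, adjusted p = 0.0144). As with *hlh-34*, all mutant libraries were below all N2 libraries in both experiments. In *set-2(zr2012)* *mdl-1* (0.96, adjusted p = 0.0144) and *mml-1* (0.92, adjusted p = 0.0278), the Mad-like and Myc and Mondo-like genes, rose. The 1 fall and 2 rises of 11 stand beside 4.74% and 5.71% of all genes tested. The 2 falls of experiment 1 were 0 without *set-2(tm1630)* replicate 1, 1 without replicate 2 or 3 or N2 replicate 2, 3 without N2 replicate 3 and 4 without N2 replicate 1. In experiment 2 none of the 3 calls was made without any 1 library other than N2 replicate 3. Without that library, 6 fell and 2 rose, beside 5386 and 5082 of all 16555 genes tested.

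Markers of differentiated tissues were counted in the same way, beside 16.0% lower and 14.4% higher of all genes tested in *set-2(tm1630)*. Of 10 pan-neuronal genes tested (12 listed, with *unc-10* and *unc-18* at 0), 5 fell and none rose, among them the kinesin gene *unc-104* (log2 fold change −1.86, adjusted p = 0.0112) and the synaptotagmin gene *snt-1* (−1.83, adjusted p = 0.00918). The summed pan-neuronal level was 660.0 to 709.5 CPM in *set-2(tm1630)*, against 1048 to 1547 CPM in N2 experiment 1, and 1639 to 1837 CPM in *set-2(zr2012)*, against 1303 to 1772 CPM in N2 experiment 2. Of the marker genes of body muscle, epidermis, intestine and pharynx tested, 2 of 4, 1 of 4, 1 of 4 and 1 of 2 fell in *set-2(tm1630)* and none rose, counts too small to set against that share. In *set-2(zr2012)* the epidermal factor gene *lin-26* fell (−1.42, adjusted p = 0.00578), the pan-neuronal gene *unc-13* rose (0.64, adjusted p = 0.0278), and no other gene of these 5 lists passed. The body muscle sum was 1573 to 1826 CPM in *set-2(tm1630)*, against 3167 to 4662 CPM in N2 experiment 1. No adult yolk gene (2 tested in *set-2(tm1630)*, 3 in *set-2(zr2012)*) passed with edgeR, 2 were higher in *set-2(zr2012)* at an unadjusted p under 0.05, and 2 were higher there by DESeq2. The part of these differences in the levels of the bHLH genes was not tested. Of the pan-neuronal genes 0, 2 and 0 fell without *set-2(tm1630)* replicate 1, 2 and 3, and 8 fell without N2 replicate 3 of experiment 1. No gene of the muscle, epidermis, intestine and pharynx lists fell without any 1 of the *set-2(tm1630)* libraries. *lin-26* was not called without *set-2(zr2012)* replicate 2 or 3, and *unc-13* was not called without any 1 library of experiment 2 other than N2 replicate 3.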

How the data were processed

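The authors deposited 1 table of raw read counts per gene for each of 12 libraries (TruSeq RNA v2, a kit that does not mark strand, so overlapping genes on opposite strands cannot be told apart). Per the study's methods, reads were mapped to genome release WS220 with 2 mismatches allowed in Galaxy 19.05; the submitters' processing notes name Trimmomatic 0.36.0, HTSeq 0.9.1 and DESeq2 2.1.8.3, and the aligner is not given in the sources used here. Groups came from the sample labels. The 28 genes and the 12 gene lists were chosen with earlier results of these data known.

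Genes reaching 10 counts in 3 or more libraries of a fit were tested in R 4.3.3 with edgeR 4.0.16 (TMM, estimateDisp, glmQLFit, glmQLFTest; two-sided, Benjamini-Hochberg over all genes tested, threshold 0.05), 1 fit of 6 libraries per experiment and 1 fit of 12 for the difference of changes. SE is the absolute log2 fold change over the square root of F. CPM are TMM-normalized within an experiment. An exact permutation test of 3 against 3 libraries cannot give a p under 0.1 and was not used. DESeq2 1.42.0 (Wald test, size factors), 2 other filters, a replicate block, all 12 libraries in 1 fit and leaving out each library were alternatives. The code was tested on simulated data. Values were printed for each gene past the threshold in any of the 3 tests, for *hlh-2*, the 5 proneural genes and *lin-22*, and for at most 4 genes per list, those with the largest change past it. Gene names, transcript numbers and neighbours came from RefSeq (WBcel235), where all 28 symbols matched. The floor of 3 counts covers counting error only. One *set-2(tm1630)* library, whose title and description give different replicate numbers, was taken as titled (replicate 3).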

Additional observations from a re-analysis of the deposited data

Results flagged for a closer look

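For 3 genes the change in *set-2(tm1630)* differed from the change in *set-2(zr2012)* in the test of the difference itself (edgeR's quasi-likelihood test, adjusted over all genes). The 3 are 14.3% of the 21 genes tested, near the 11.7% of all genes tested that were more negative in *set-2(tm1630)*. *hlh-15* differed by −2.44 on the log2 scale (adjusted p = 0.0048), *hlh-17* by −2.37 (adjusted p = 0.0293) and *hlh-32* by −2.32 (adjusted p = 0.0428), each more negative in *set-2(tm1630)*. All 3 mutant libraries of experiment 1 were below all 3 N2 libraries for each gene, and the libraries of experiment 2 overlapped for each. The 3 were not equally firm: of 12 fits with 1 library left out, *hlh-15* passed in 12, *hlh-17* in 5 and *hlh-32* in 1. Each allele was measured in its own experiment, so that allele and experiment cannot be told apart.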

How the results depend on the processing

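Of the differences between alleles, *hlh-15* passed under all 17 alternatives (adjusted p up to 0.0325). The genes lower in *set-2(tm1630)* numbered 7, and 6 with DESeq2 size factors, 9 with its Wald test, 7 with either filter, 10 with all 12 libraries in 1 fit and 0 to 10 when 1 library was left out. Those higher numbered 2 without a count filter and 0 to 1 when 1 library was left out. Among all genes tested in *set-2(tm1630)*, 2609 were lower with edgeR, 3330 with the Wald test and 4648 with all 12 libraries in 1 fit. In *set-2(zr2012)* the 1 gene lower became 5 with the Wald test and 0 to 6 when 1 library was left out, and the genes higher 0 to 2. The 3 differences between alleles became 5 with the Wald test, without a filter and with the stricter filter (10 counts in each library). They became 1 to 9 when 1 library was left out. Of these, 2 of the 5 without a filter (*hlh-25* and *hlh-27*) and 2 of the 9 were more positive in *set-2(tm1630)*. Over all 17903 genes tested, 2603 were more negative and 2626 more positive with the Wald test. These counts were 1801 and 2045 of 29758 without a filter, and 1725 and 1779 of 13082 with the stricter filter. With 2 libraries in a group the test has fewer samples. Deviations of same-numbered mutant and N2 libraries correlated at −0.381, −0.0888 and −0.0836 in experiment 1. In experiment 2 they correlated at 0.146, −0.375 and −0.34, and no library correlated best with its own number. With only 3 libraries per group, these values cannot exclude that same-numbered libraries shared a preparation. With the replicate block 3 genes were lower in *set-2(tm1630)* (*cnd-1*, *hlh-15* and *hlh-32*), 0 in *set-2(zr2012)*, and 1 differed between alleles (*hlh-15*). Over all genes tested with the block, 1446 of 16332 were lower in *set-2(tm1630)* and 0 of 16892 in *set-2(zr2012)*. Between alleles, 738 of all 17903 genes tested with the block were more negative in *set-2(tm1630)* and 1120 more positive. No call reversed its direction. Log2 fold changes that were not called with all libraries of a fit changed sign for *hlh-2* in *set-2(zr2012)* (0.013 with the replicate block) and *hlh-19* (0.0049 with the stricter filter). When 1 library was left out they ranged from −0.38 to 0.33 for *hlh-14* and −0.95 to 0.083 for *hlh-19* in *set-2(tm1630)*. In *set-2(zr2012)* the range was −0.21 to 0.30 for *hlh-2*, and the value of 0.30, without N2 replicate 3, was called higher. The other ranges there were −0.20 to 0.51 for *hlh-12*, −0.15 to 0.13 for *hlh-19*, −0.10 to 0.11 for *lin-22*, −0.25 to 0.16 for *hlh-8* and −0.038 to 0.42 for *hlh-33*. The difference between alleles ranged from −0.42 to 0.073 for *hlh-34*. The causes were not tested. Depth limits *hlh-25* to *hlh-29*, *hlh-12* and *hlh-31*, which held few reads.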

Other observations

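Although *hlh-30* was listed at 0, genes known as targets of its protein, the TFEB homologue that acts in autophagy and lysosome function, were measured: 12 of a list of 17 were tested in each experiment (*lgg-2*, *atg-18* and *lipl-5* were listed at 0). In *set-2(tm1630)* the lipase gene *lipl-2* fell (2.399, 3.51 and 3.97 CPM in the mutant, against 27.95, 39.7 and 5.08 CPM in N2 experiment 1, log2 fold change −2.88, adjusted p = 0.0205 with edgeR's quasi-likelihood test) and none rose, with 2 higher at an unadjusted p under 0.05 and 1 by DESeq2. In *set-2(zr2012)* 4 of 12 rose and none fell (5.71% and 4.74% of all genes tested), among them *bec-1*, the Beclin homologue (0.66, adjusted p = 0.0337), and *vha-16*, a subunit gene of the vacuolar proton pump (0.59, adjusted p = 0.0225). The count of 4 was 0 without any 1 library of experiment 2 other than N2 replicate 3. Without that library it was 6, where 5082 of all 16555 genes tested rose. *lipl-2* was not called without any 1 of the *set-2(tm1630)* libraries or without N2 replicate 2 of experiment 1.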
